A study of Danio rerio with 14 samples.

Results

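The comparison of 5-AzaC with DMSO zebrafish embryos listed 29854 consensus peaks of the histone variant H2A.Z. Of these, 3669 (12.3%) overlapped no peak of the parallel TDCIPP comparison by 1 bp or more on the same sequence. These peaks are the subject here, and the other 26185 rows of the same table, which did overlap a TDCIPP peak, are the set they are described beside. The members were selected by their presence in one consensus peak set and absence from the other, so peak calls in the 5-AzaC, TDCIPP and DMSO libraries all entered the choice. A value of the 5-AzaC comparison is therefore a description of these peaks and not a test of them.

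H2A.Z was mapped by CUT&Tag, in which an antibody tethers a transposase that cuts and tags the DNA around the bound protein. Wild-type AB/Tuebingen embryos were kept in 5-AzaC at 100 µM, begun at the 1-cell stage (3 samples), in TDCIPP at 3.12 µM, begun 0.75 hours after fertilization (2 samples), or in 0.1% DMSO as the control (3 samples). All were collected 6 hours after fertilization, at about 10000 cells a library. Each library holds many embryos, the labels do not say that replicates came from separate clutches, and the deposited p-values measure only the spread between these samples. Another 6 libraries, out of 14 in the series, are from embryos with H2A.Z overexpression and were not analysed here.

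H2A.Z replaces H2A in some nucleosomes, is typically found around active or poised promoters and enhancers, and in vertebrates tends to lie where DNA methylation is absent. In the early zebrafish embryo, nucleosomes that carry H2A.Z mark regions kept free of DNA methylation before the embryonic genome is switched on. 5-AzaC (5-azacytidine) is a cytidine analogue that traps DNA methyltransferases and so lowers methylation, whereas the flame retardant TDCIPP is an organophosphate ester. The study asks whether repetitive elements compete for H2A.Z when their silencing is lost.

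In these embryos the peaks without a TDCIPP counterpart were weak and narrow, and most held reads in DMSO as well as in 5-AzaC. The DMSO level was below 1 read at 62 of them (1.69%), and 29 members shared the lowest value, 0.753 reads. Whether that value is a floor that an empty peak would also receive is not known. No background level was available, so whether the weak signal of the members marks bound H2A.Z was not tested. Their level, which is the log2 of the mean number of normalised reads in a peak, had a median of 2.07 in 5-AzaC embryos and 2.20 in DMSO embryos, or 4.2 and 4.59 reads. The overlapping peaks had medians of 3.10 in 5-AzaC and 3.82 in DMSO, or 8.57 and 14.1 reads. The level in 5-AzaC was below that in DMSO at 2146 of the 3669 members (58.5%), above it at 1509 (41.1%) and equal at 14. It was below DMSO at 89.9% of overlapping peaks, and at 79% when these were weighted to the members' mean levels. Members were thus lower in 5-AzaC less often than overlapping peaks, but still at most sites with the deposited normalisation. How far the sets differed depended on the level held alike. The members' median log2 difference from DMSO was 0.37 above that of overlapping peaks at like mean level. It was 0.07 above at like DMSO level and 0.64 above at like 5-AzaC level. Over all peaks of this comparison the level was below DMSO at 86%. The sign at a peak depends on that normalisation, and no other was run. The members are not called sites gained or lost with 5-AzaC, and are named here by the rule alone. The TDCIPP level at these sites was not analysed here, because a peak absent from the TDCIPP table has no value there. The samples are whole embryos, so a site occupied in fewer cells and a site with less H2A.Z in every cell cannot be told apart.

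**Figure D1:**
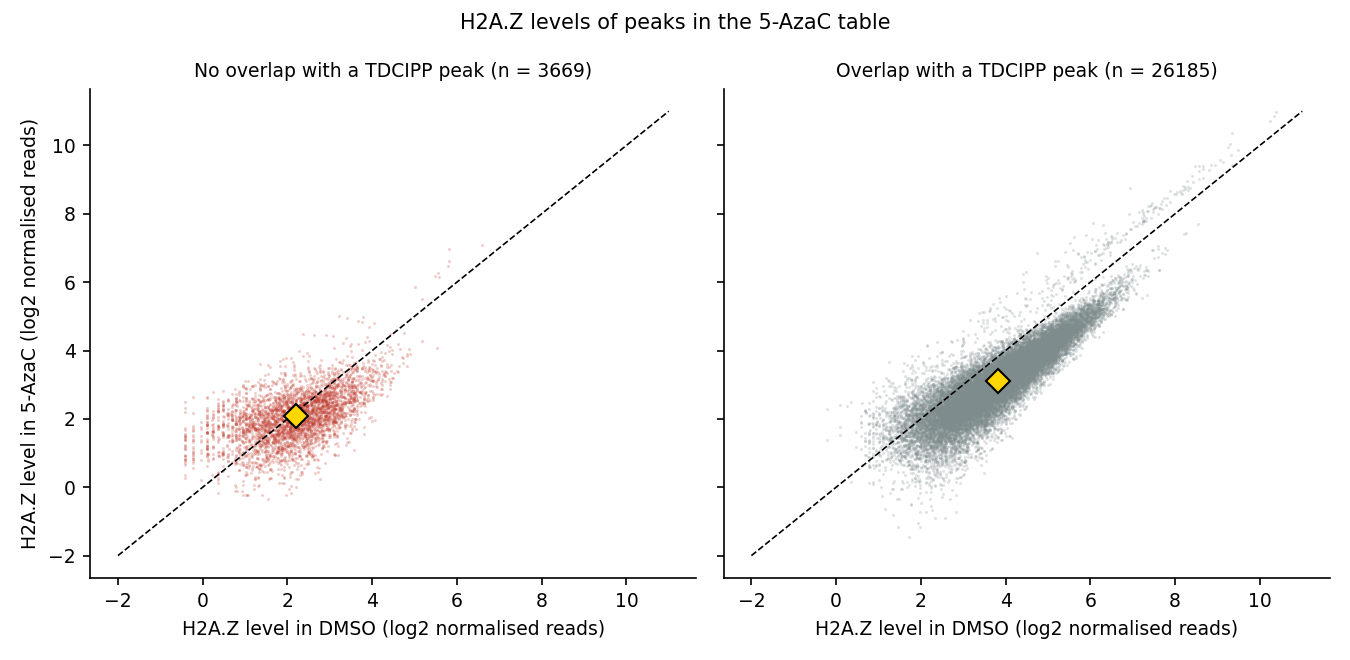
Each point is 1 peak of the 5-AzaC table, with its level in 5-AzaC on the vertical axis and in DMSO on the horizontal axis, both in log2 normalised reads; the left panel holds the 3669 peaks without a TDCIPP overlap and the right panel the 26185 with one. The diamond is the median of each panel, at 2.07 in 5-AzaC and 2.20 in DMSO on the left and at 3.10 and 3.82 on the right, and the dashed line marks equal levels.

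The spread among members was wide on both sides. Levels ran from -0.33 to 7.08 in 5-AzaC, with a 10th percentile of 1.08 and a 90th of 3.02. In DMSO they ran from -0.41 to 6.59, with these percentiles at 0.87 and 3.44. The level in 5-AzaC was at or above the median of overlapping peaks at 320 members (8.72%), and the level in DMSO was at or above it at 159 (4.33%). All members together covered 2.40 Mb, against 23.8 Mb for the overlapping peaks. They held 5.16% of the reads summed over all peaks in 5-AzaC and 3.87% in DMSO, with means of 5.02 and 5.74 reads a peak. The summed reads in 5-AzaC were 0.874 of those in DMSO at the members and 0.648 at the overlapping peaks.

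The change, which is the level in 5-AzaC minus the level in DMSO, ran from -2.53 to 2.89 among the members. The median was -0.18, with quartiles of -0.72 and 0.46, against -0.74 with quartiles of -1.05 and -0.39 at overlapping peaks. At 521 members (14.2%) the level was at least 2-fold lower in 5-AzaC, with medians of 1.59 in 5-AzaC and 2.94 in DMSO. At 430 members (11.7%) it was at least 2-fold higher, with medians of 2.24 and 0.78. Sorting by change itself places low DMSO levels at the gaining end and high ones at the losing end, so these levels only describe the classes. The lowest DMSO level in the table, -0.41 or 0.753 reads, was listed for 29 members and for 0 overlapping peaks. Where DMSO holds so few reads the size of a gain is imprecise, and 263 of the 430 members with at least 2-fold gains (61.2%) had a DMSO level under 1. Median width was 487.5 bp in the gaining end and 581 bp in the losing end.

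Weak peaks were more often without a TDCIPP counterpart than stronger ones, by their mean level over both groups. It was 56.7% of peaks at mean levels from 1 to 1.5, 26.5% from 2 to 2.5, 6.63% from 3 to 3.5 and 0.959% from 4 to 4.5. Above that it stayed low, at 0.151% from 5 to 5.5 and 2.35% from 6.5 to 7, where it rests on 2 members. Overlapping peaks were therefore weighted to the members' mean levels, in bins of 0.25, before the sets were put side by side. The weighted overlapping peaks had a median width of 533 bp, against 540 bp at the members. Before weighting, the overlapping median was 812 bp. Peaks narrower than 500 bp were 43.5% of members and 44.1% of the weighted overlapping peaks. With weighting by the level in 5-AzaC alone, the members' median width was 67 bp less than that of overlapping peaks. Members of 2000 bp or more were rare, at 16 of 3669 (0.436%), against 2.61% of overlapping peaks before weighting.

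At like mean level the members' changes lay above those of overlapping peaks, and the size of that difference depended on which level was held alike. The members' median change was -0.18, against -0.55 at the weighted overlapping peaks, a difference of 0.37 on the log2 scale. With weighting by the DMSO level the difference was 0.07, and with weighting by the 5-AzaC level it was 0.64. At like mean level, at least 2-fold higher levels in 5-AzaC were found at 11.7% of members and 2.11% of overlapping peaks. At least 2-fold lower levels were found at 14.2% of members and 25.3% of overlapping peaks. The members' medians lay closer to those of overlapping peaks at mean levels from 3 to 4 than at lower ones. They were 0.19 and -0.40 at mean levels from 1 to 1.5, -0.16 and -0.55 from 2 to 2.5, and -0.55 and -0.71 from 3 to 3.5. From 4 to 4.5 they lay further apart again, at -0.56 for 37 members and -0.80 for overlapping peaks. From 4.5 to 5 they were almost the same, at -0.84 for 5 members and -0.85 for overlapping peaks. At the 9 members with a mean level of 5 or more the level was higher in 5-AzaC, and from 5 to 5.5 the medians were 0.60 at 2 members and -0.88 at overlapping peaks. The rule used peak calls of the same libraries, so no test is given for this difference.

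**Figure D2:**
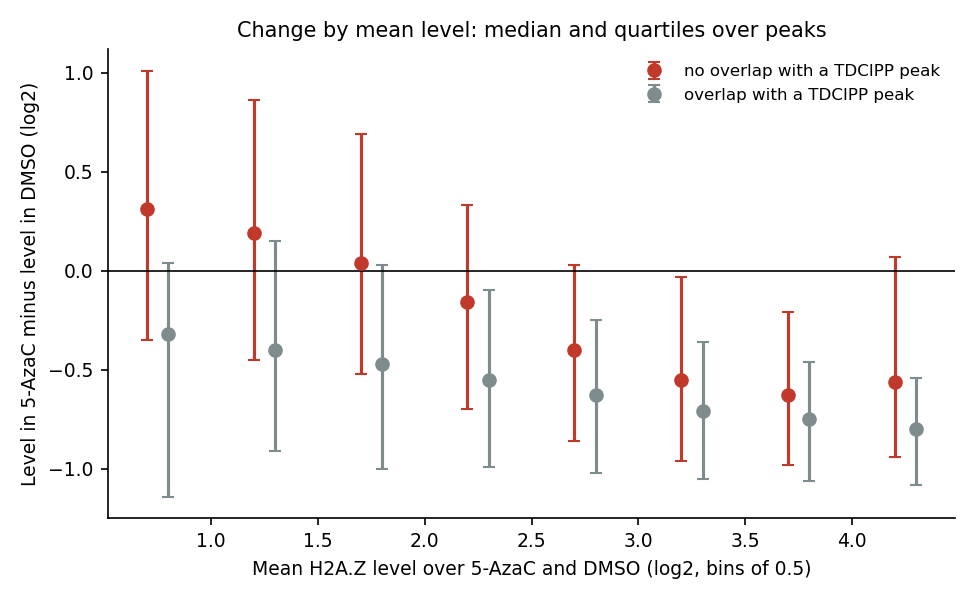
Points are the median change (level in 5-AzaC minus level in DMSO, log2, vertical axis) of peaks in bins of mean level 0.5 wide (log2, horizontal axis), and bars run from the lower to the upper quartile over peaks; bins with at least 20 peaks of both sets are drawn. The medians of peaks without a TDCIPP overlap lie above those with one in each bin drawn, at 0.19 and -0.40 from 1 to 1.5 and at -0.55 and -0.71 from 3 to 3.5.

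Many weak peaks are listed with an FDR of exactly 1. In the authors' deposited table the FDR was under 1 for 685 of 3669 members (18.7%) and for 73.8% of overlapping peaks, and no peak below a mean level of 2.84 had one under 1. The authors' deposited table called 31 members lower and 9 higher in 5-AzaC than in DMSO, with the FDR threshold at 0.05. With the p-values of the authors' deposited table adjusted by Benjamini-Hochberg over all peaks instead, 18 members were lower and 6 higher. The background was 12.5% of all peaks called lower and 0.301% called higher, or 18.7% and 0.45% of the peaks that the authors' deposited table lists below an FDR of 1. The members' calls were 0.845% lower and 0.245% higher of all members, and 4.53% and 1.31% of those with such an FDR. Overlapping peaks with such an FDR, weighted to the mean levels of the 685 members with one, were called lower at 7.96% and higher at 0.173%. At an unadjusted p under 0.05 in the authors' deposited table, 180 members were lower and 77 higher. The rule used peak calls of the libraries in this contrast, so nothing is read from these shares.

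For the 31 members called lower, the level was 2.71 in 5-AzaC and 4.20 in DMSO, and levels ran from 1.56 to 4.27 in 5-AzaC and from 3.53 to 5.54 in DMSO. A call needed a mean level of at least 2.84 in practice, so a high DMSO level is built into this set. Changes ran from -2.25 to -0.91, with a median of -1.49. They were spread over the genome, on 17 of the 25 assembled chromosomes with at most 3 on any 1 of them, and 5 lay on alternate-locus sequences, which are second versions of parts of a chromosome in the assembly. The nearest TDCIPP peak was a median of 2.73 kb away, and from 0.58 to 96.7 kb. The lowest change, -2.25, was that of a 1259 bp peak on chr14_KZ115446v1_alt:274970-276229, an alternate-locus sequence, with levels of 1.56 in 5-AzaC and 3.81 in DMSO (FDR 0.00973 in the authors' deposited table). On an assembled chromosome, chr18:7480862-7481440 (578 bp) had levels of 1.77 in 5-AzaC and 3.80 in DMSO, a change of -2.03 (FDR 0.0255 in the authors' deposited table). The other 3 of the 5 most negative calls had changes of -2.09, -1.93 and -1.92, at chr24_KZ115707v1_alt:103996-104626, chr2_KZ115048v1_alt:179496-180391 and chr4:50320871-50321342. Their levels were 1.97, 2.05 and 1.69 in 5-AzaC and 4.06, 3.98 and 3.61 in DMSO.

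The 9 members called higher were of 2 kinds. Of these, 6 had moderate levels in 5-AzaC, from 3.52 to 4.47, and levels in DMSO from 1.35 to 2.36. The steepest lay at chr21:3400446-3400801, a 355 bp peak with 12.1 reads in 5-AzaC and 2.55 in DMSO, levels of 3.60 and 1.35 and a change of 2.25 (FDR 0.0192 in the authors' deposited table). The next, chr4:42648452-42649901, was 1449 bp wide with levels of 4.47 in 5-AzaC and 2.36 in DMSO (change 2.11, FDR 0.0142 in the authors' deposited table). A 373 bp peak at chr7:26438042-26438415 had levels of 3.52 and 1.60 in these groups (change 1.92, FDR 0.0288 in the authors' deposited table). The other 3 of this kind were on chromosome 4, at chr4:61202748-61203049, chr4:57802548-57802898 and chr4:48516903-48517833. Their levels in 5-AzaC were 3.78, 3.99 and 3.77, against 1.96, 2.27 and 2.09 in DMSO, with FDRs of 0.0445, 0.0209 and 0.0452 in the authors' deposited table. All 4 of the chromosome 4 peaks lie on the long arm, taken here from 25 Mb, a start set after values were seen. The arm held 665 of the 29854 peaks and 5.23% of all members. How many of all peaks called higher lie there is not given here, so nothing is read from these 4. Without that arm 5 members were called higher and 30 lower.

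The remaining 3 had more reads in DMSO than those 6, and the 2 on chromosome 8 were strong in both groups. At chr8:34771290-34773565, a 2275 bp peak had 126 reads in 5-AzaC and 56.5 in DMSO, levels of 6.98 and 5.82 (change 1.16, FDR 0.00744 in the authors' deposited table). At chr8:35047893-35048783 the levels were 6.63 in 5-AzaC and 5.81 in DMSO (change 0.82, FDR 0.0238 in the authors' deposited table). A 559 bp peak at chrUn_KN150342v1:21078-21637, an unplaced sequence, had 4.97 in 5-AzaC and 3.78 in DMSO (change 1.19, FDR 0.0345 in the authors' deposited table). The first of these stood within 100 kb of 13 other peaks of the 5-AzaC table with a median mean level of 6.56 and a median change of 0.09, and the second of 9 others at 6.63 and -0.45. All of those neighbours overlapped a TDCIPP peak.

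**Figure D3:**
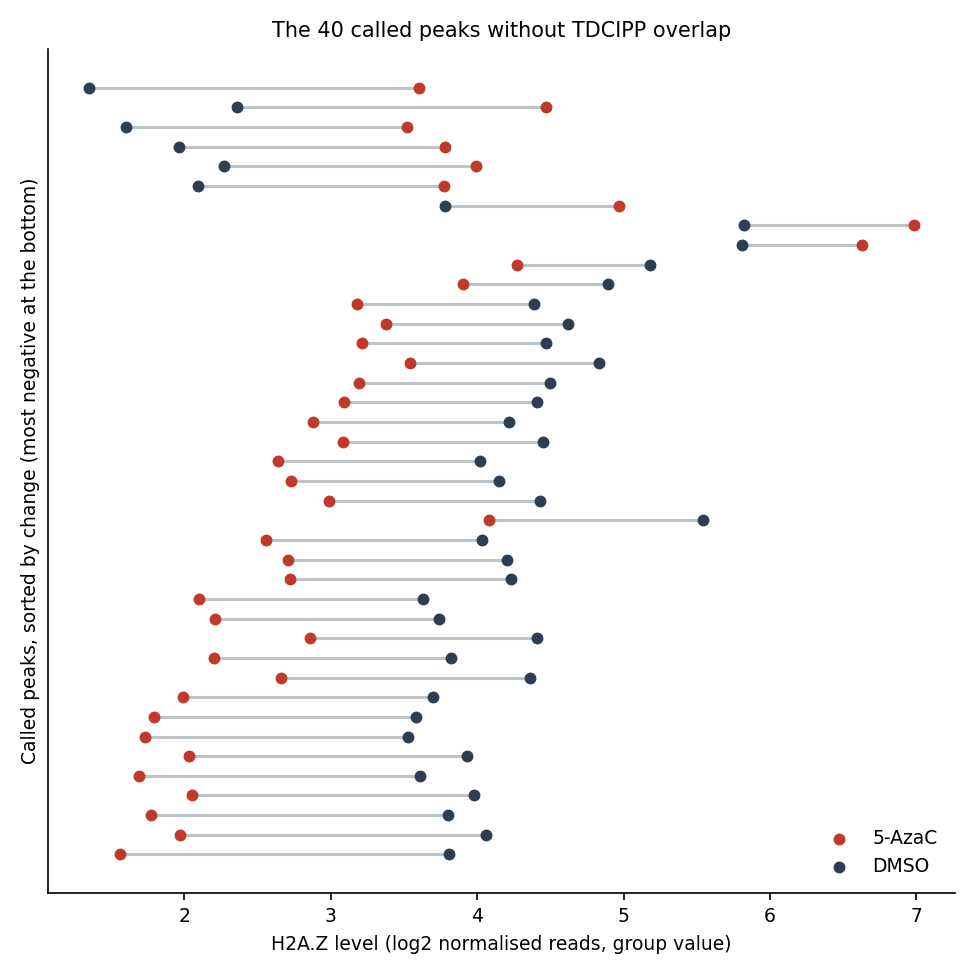
Each line is 1 of the 40 members that the authors' deposited table calls at the FDR threshold of 0.05, joining its level in 5-AzaC to its level in DMSO (log2 normalised reads, horizontal axis), sorted by change with the largest gain at the top. The 9 peaks at the top have the 5-AzaC point to the right, and the 31 below them have a DMSO level of at least 3.53 and the 5-AzaC point to the left.

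Strong members were few, and they shared a direction. A mean level of 5 or more was reached by 9 members, and the level in 5-AzaC was above that in DMSO at all 9, with changes from 0.35 to 1.16. Among 2310 overlapping peaks at this level it was above DMSO at 215 (9.31%). This cut at 5 was set with the levels known, and no test is given. The rule used peak calls of the same libraries, and the mean level includes the 5-AzaC level, so nothing is read from this direction. The strongest was chr4:28571391-28572587, 1196 bp wide, with 135 reads in 5-AzaC and 96.3 in DMSO, levels of 7.08 and 6.59 (FDR 0.105 in the authors' deposited table). Its nearest TDCIPP peak lay 1241 bp away and had levels of 7.68 in TDCIPP and 7.37 in DMSO. Of the 9 strong members, 8 lay from 1.24 to 3.81 kb from a TDCIPP peak. The exception was chr18:13130894-13131148, 254 bp wide with levels of 6.19 in 5-AzaC and 5.48 in DMSO, whose nearest TDCIPP peak was 8.78 kb away. Its 8 neighbours within 100 kb had a median mean level of 3.54 and a median change of -1.02. At the other sites the neighbours were strong too, with median mean levels from 4.64 to 7.15. Their median changes ran from 0.39 to 0.69 at 6 of these 8 sites and were 0.09 and -0.45 at the 2 on chromosome 8. Most of these neighbours overlapped a TDCIPP peak. By their median, neighbours were thus also higher in 5-AzaC at those 6 sites, but not around all strong members. The widest member, 3335 bp at chr2:19447705-19451040, was among the 9, with levels of 6.48 in 5-AzaC and 5.79 in DMSO. The other members among the 5 widest included chr23:12615960-12618380 with 3.16 and 2.94, chr5:4576612-4578843 with 3.13 and 3.42, and chr4:21006772-21008983 with 3.28 and 4.25 in these groups.

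The members lay on all 25 assembled chromosomes, and their share was highest on chromosome 4. The long arm of this chromosome is late replicating and rich in repeats, with arrays of zinc-finger and immune-receptor genes and of 5S ribosomal RNA genes. Of 665 peaks on that arm, 192 (28.9%) had no TDCIPP counterpart, against 2757 of 23610 (11.7%) on the other 24 assembled chromosomes. On the rest of chromosome 4 they were 56 of 480 (11.7%). Among the other assembled chromosomes the share ran from 9.92% on chromosome 10 to 12.9% on chromosome 22. Peaks on the long arm were weaker, with a median mean level of 2.71, and over the whole table weak peaks were more often members. If peaks at each mean level had the member share found on the other 24 chromosomes, 21.4% of the long arm's peaks would be members. With the DMSO level held alike the value is 23.0%, and with the 5-AzaC level 17.5%. No test was made of this excess, since peaks on 1 arm are not replicates.

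**Figure D4:**
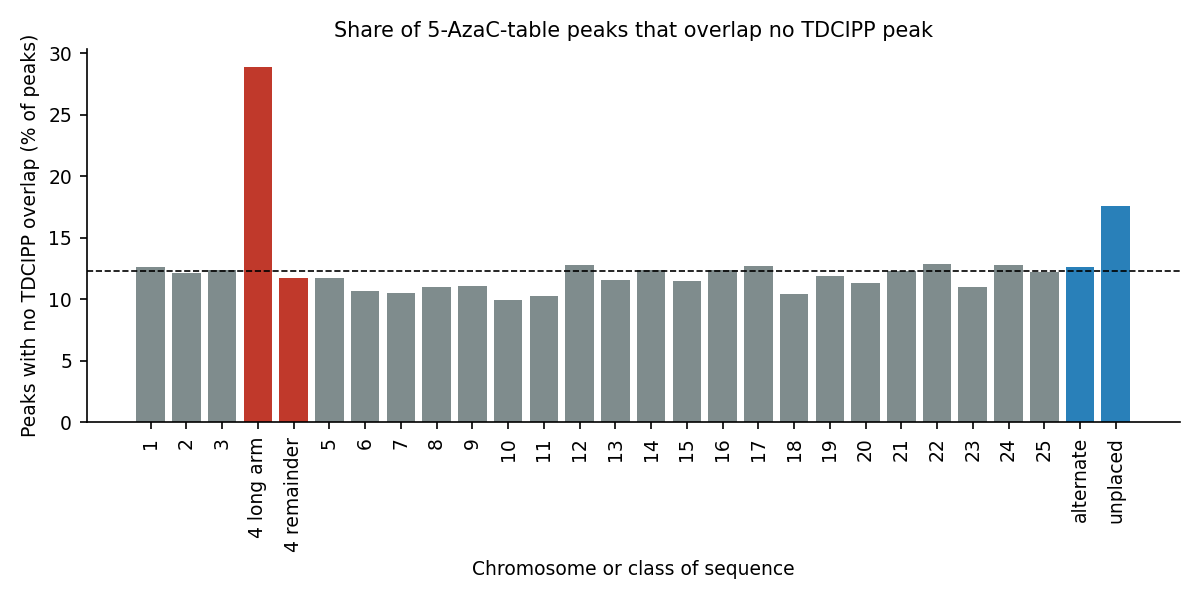
Bars give the percent of peaks of the 5-AzaC table that overlap no TDCIPP peak (vertical axis) on each chromosome or class of sequence (horizontal axis), and the dashed line is the 12.3% of the whole table. The chromosome 4 long arm stands at 28.9%, the remainder of chromosome 4 at 11.7% and unplaced sequences at 17.6%.

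On the long arm most members were higher in 5-AzaC. Their median level was 1.97 in 5-AzaC and 1.88 in DMSO, and the level in 5-AzaC was the higher at 114 of 192 (59.4%). On the other 24 chromosomes the medians were 2.11 in 5-AzaC and 2.19 in DMSO, with 5-AzaC the higher at 1165 of 2757 (42.3%). The median change was 0.26 on the arm and -0.15 on the other chromosomes. These were not compared at like mean level. The rule used peak calls of the same libraries, so nothing is read from the direction on the arm. Over the whole genome the members' median change was 0.19 at mean levels from 1 to 1.5 and -0.55 from 3 to 3.5. Overlapping peaks had median changes of -0.56 on the arm and -0.73 on the other chromosomes. Of the 430 members with at least 2-fold gains, 40 (9.30%) lay on the arm, against 23 of 521 (4.41%) with at least 2-fold losses. The arm held 5.23% of all members. In blocks of 5 Mb, members made up between 27.9% and 42.2% of peaks in every block from 30 to 70 Mb, with the largest share from 60 to 65 Mb (19 of 45 peaks). Their share was 12.2% from 25 to 30 Mb and 20.4% from 75 to 80 Mb. The median change of members ran from -0.66 from 25 to 30 Mb, where 4 of 10 members were higher in 5-AzaC, to 0.71 from 40 to 45 Mb, where 13 of 20 were. It was also below 0 from 65 to 70 Mb (-0.10) and from 75 to 80 Mb (-0.22). Overlapping peaks had median changes below 0 in every block, from -0.76 to -0.26 on the long arm. The blocks hold between 10 and 25 members each from 25 Mb on.

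On alternate-locus sequences, 581 of 4628 peaks (12.6%) were members, against 14.7% if their mean levels alone set the share. Their median level was 1.90 in 5-AzaC and 2.34 in DMSO, and 5-AzaC was the higher at 173 (29.8%). Alternate-locus sequences held 21.7% of the members with at least 2-fold losses and 6.05% of those with at least 2-fold gains, beside 15.8% of all members. Overlapping peaks there also had a lower median change, -0.83, against -0.73 on the other 24 assembled chromosomes. On unplaced sequences, 83 of 471 peaks (17.6%) were members, against 12.6% by mean level, with medians of 2.17 in 5-AzaC and 2.07 in DMSO. Of these 83, 40 lay on unplaced sequences with no TDCIPP peak at all.

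Members lay about as far from other peaks as overlapping peaks did. The nearest TDCIPP peak on the same sequence was a median of 15.5 kb away (quartiles 5.65 and 36.1 kb), and 43 members (1.17%) had one within 1 kb. At the 5 members closest to the threshold, 5 to 207 bp from a TDCIPP peak, changes ran from -1.07 to 0.64. At the 5 overlapping peaks with the shortest overlap, 162 to 241 bp, they ran from -0.42 to 0.53. The nearest other peak of the 5-AzaC table was a median of 14.9 kb from a member and 14.4 kb from an overlapping peak, and it lay within 10 kb at 38.3% of members and 37.8% of overlapping peaks. That nearest peak was itself a member at 551 members (15%) and at 3120 overlapping peaks (11.9%). At 176 members (4.80%) the nearest TDCIPP peak was 100 kb or more away. The farthest, chr4:24485662-24486395, was 368 kb from one, with levels of 2.23 in 5-AzaC and 2.60 in DMSO and no other peak within 100 kb. The next 4, from 316 to 345 kb, had levels from 1.36 to 1.70 in 5-AzaC and from 0.61 to 0.93 in DMSO.

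Runs of members were short. With members up to 10 kb apart joined, 3403 (92.8%) stood alone, 124 runs held 2 each, and 5 runs held more. The longest held 5 members over 15.3 kb at chr19:26779756-26795078, where the level in 5-AzaC was below that in DMSO at all 5, with changes from -1.39 to -0.34 and medians of 2.52 and 3.37. The largest in the other direction held 4 members over 20.1 kb at chr4:42634432-42654522. There the levels in 5-AzaC were 3.55, 3.14, 4.47 and 4.37, against 1.82, 1.90, 2.36 and 3.38 in DMSO. All 4 were higher in 5-AzaC, with changes from 0.99 to 2.11, and 1 of them was among the 9 called higher. The 3 runs of 3 members included 2 more on the long arm of chromosome 4. In those 2 all members were higher in 5-AzaC, with median changes of 0.88 and 1.55.

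The mirror set is the 2803 of 28988 TDCIPP peaks (9.67%) that overlapped no 5-AzaC peak. Unlike the members, most of it was higher in the treated group than in DMSO. Its median level was 2.44 in TDCIPP and 2.02 in DMSO, and the level in TDCIPP was the higher at 63.8% of its peaks. The DMSO libraries are common to both comparisons, and the mirror set was also chosen by peak calls of the libraries compared. The 2 changes are therefore only set side by side, and nothing is read from their directions. The median changes were -0.18 at the 5-AzaC members and 0.43 at the mirror set. At peaks that did overlap they were -0.74 in the 5-AzaC comparison and -0.58 in the TDCIPP comparison. On the long arm of chromosome 4 the mirror set made up 24.4% of TDCIPP peaks (153 of 626), against 8.77% on the other 24 assembled chromosomes. The median change of the mirror set was 0.64 on the arm and 0.43 on those chromosomes, and nothing is read from this either. In both comparisons the percent of peaks without a match was thus higher on this arm than on the other 24 assembled chromosomes. For the mirror set no value at like mean level was computed. The 5-AzaC table was built from 3 treated libraries and the TDCIPP table from 2, and the part this plays in the size of either set was not tested.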

How the data were processed

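H2A.Z CUT&Tag was compared between 5-AzaC and DMSO embryos (3 samples each) and between TDCIPP (2) and DMSO embryos. The submitters' processing notes name the build GRCz11 and Bowtie2, Picard, MACS2, deepTools and DiffBind, without roles or settings. The authors deposited a table for each comparison, with log2 levels per group, a log2 change, a p-value and an FDR (q-value) per peak, per the file headers. The number of libraries a consensus peak had to appear in is not given in the sources used here. Depth per library is unknown, since no value of a single sample is in the tables used here. Coordinates are as deposited, with no peaks that only touch, so counting from 0 or 1 makes no difference to overlap.

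Overlaps, medians and weighted medians were computed in Python 3.11.15 with pandas 2.3.3 and numpy 2.4.6, after checks on simulated tables. Changes are the difference of the deposited group levels and match the deposited change to 0.01. Calls are the deposited FDR under 0.05, and no other test was made, because peaks are not replicates. Named peaks are the members called higher, the 5 most negative calls, the 5 strongest, widest and farthest from a TDCIPP peak, and the longest runs, ties included. The strong members and the start of the chromosome 4 long arm were added after values were seen. The members and lists were chosen with earlier results of these data known. Genes, promoters, repeats and sequences were not analysed here, for want of a genome and annotation of the files' build.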

Additional observations from a re-analysis of the deposited data

How the results depend on the processing

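No paired analysis was possible because the tables hold 1 value per group; for the same reason leaving out replicates, other scalings and a filter on low counts were not run. Alternatives on transcript starts, GC content and repeats were not run, for want of a genome. An overlap of at least 50% of the narrower peak gave 3684 members (33 called lower, 9 higher) and a distance of at least 1 kb from any TDCIPP peak gave 3626 (29 and 8), with the median change at -0.18 and its difference from overlapping peaks at 0.37 in both. The width difference was not run under either. A distance of at least 10 kb left 2281 members, with 11 called lower and 2 higher and a median change of -0.13. An FDR under 0.01 gave 2 lower and 1 higher, an FDR under 0.1 gave 89 and 22, and Benjamini-Hochberg over all peaks gave 18 lower and 6 higher. The median change was -0.14 on the assembled chromosomes, -0.51 at members with a deposited FDR under 1 and -0.59 above the median mean level. The difference in change from overlapping peaks was 0.21 among peaks with a deposited FDR under 1 and 0.07 with weighting by the DMSO level. Added after seeing the data, weighting by the 5-AzaC level gave 0.64, and turned the difference in width from 7 bp to -67 bp. Without the long arm of chromosome 4, also added later, 5 members were called higher. The cause of these shifts was not tested.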
